A study of Mus musculus with 6 samples.

Results

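The p53 target genes described here are Trp53, which encodes the p53 transcription factor itself, and 9 genes that p53 is known to activate: Cdkn1a, Mdm2, Ccng1, Phlda3, Trp53inp1, Sesn1, Zmat3, Btg2 and Gdf15. They were picked by symbol from the gene names of Gencode by a rule that uses no measured value, although the rule itself was set with earlier results of these data known. All 10 were found among the 54446 genes of the count table. Each was above 3 counts in each of the 6 libraries, and all 10 passed the filter for comparison (10 or more counts in at least 1 library), which left 14917 genes. RNA was measured by sequencing in bone marrow-derived macrophages (BMDMs) of male BALB/c mice aged 6 to 8 weeks, whose marrow cells had been cultured for 7 days with 20% L929-conditioned medium, a source of CSF-1. The cells were left unpolarized (M0), given 20 ng/mL IFN-γ together with 50 ng/mL LPS for 24 h (M1) or given 20 ng/mL IL4 for 24 h (M2). Each state was sequenced as a control given the vehicle DMSO and after regorafenib, a multikinase inhibitor (1 µM, given 1 h ahead of polarization). Every condition is 1 library, and the sources used here do not say how many mice gave the cells or whether they were pooled.

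The p53 protein binds DNA as a tetramer and switches on genes that stop the cell cycle, repair DNA, restrain growth signals or promote cell death. Mdm2 is both a p53 target and the ubiquitin ligase that degrades p53, which closes a negative feedback loop, and p53 activity is set mainly by the stability of the protein rather than by the level of its mRNA. Many of these genes also answer to other inputs in macrophages, among them interferon, NF-κB and FoxO factors, so that their mRNA is not a direct readout of p53.

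The libraries held between 25359309 and 34898342 counts, of which the 10 most abundant genes took 9.76% to 14.4%. All 7 macrophage markers were above 3 counts in every library, with summed levels between 21598 and 48227 TMM-scaled counts per 1e6 (CPM). The summed level of 6 M1 markers was 12163 and 17837 CPM in M1 and between 37.4 and 97.2 CPM in the other libraries, and that of 6 M2 markers was 659 and 1353 CPM in M2 and between 5.23 and 33.9 CPM elsewhere. Among markers of other cells, all 5 lymphocyte markers were at 3 or fewer counts in every library, and of 7 neutrophil markers 3 were, Ly6g and Elane among them. The summed level of 6 fibroblast markers lay between 3.19 and 10.2 CPM and that of 5 dendritic cell markers between 0.303 and 38.8 CPM, with both M1 libraries highest. In bulk RNA, fewer cells of a type and less RNA per cell cannot be told apart.

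The p53 response element is built from copies of a 10-base consensus, the p53 consensus decamer, which is its own reverse complement and so was searched once for both strands. Promoter windows of RefSeq on GRCm38.p6, each with 250 bases before and 50 bases after a transcription start, were given for 8 of the 10 genes (11 windows, Trp53inp1 and Zmat3 not matched). Of all 32851 windows, 8.36% held a decamer without mismatch, and of the 11 windows of these genes 5 did. A site of 2 abutting decamers with at most 1 mismatch in its 20 bases was much rarer (0.0883% of all windows) and was found for Cdkn1a and Ccng1. The same window of Cdkn1a also held the core letters CATG, 6 bases of any kind and CATG again, a spelling that reads alike on both strands, occurs in 0.712% of windows and lies within the site of 2 decamers. The sequences are shown because they set Cdkn1a and Ccng1, with the rare paired site, beside 3 genes with a single decamer. Capitals mark the decamers, the mismatched base of a paired site included, and positions are counted from the transcription start of the window.
Cdkn1a, chr17:29090888-29090968, plus strand, −91 to −11: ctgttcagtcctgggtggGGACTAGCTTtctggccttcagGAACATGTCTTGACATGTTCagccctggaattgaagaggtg
Ccng1, chr11:40755422-40755521, minus strand, −235 to −136: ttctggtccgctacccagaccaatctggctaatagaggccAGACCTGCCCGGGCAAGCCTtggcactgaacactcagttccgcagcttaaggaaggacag
Mdm2, chr10:117710925-117710954, minus strand, −196 to −167: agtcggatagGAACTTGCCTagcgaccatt
Sesn1, chr10:41887256-41887285, plus strand, −183 to −154: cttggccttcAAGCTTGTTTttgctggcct
Trp53, chr11:69580274-69580303, plus strand, −85 to −56: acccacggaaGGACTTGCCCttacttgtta
The Cdkn1a stretch belongs to the upstream of its 2 listed starts (29090979), and the window of the downstream start (29093769) held no exact decamer. It carries an additional single decamer at −73, ahead of the paired site that starts at −51, and the paired site of Ccng1 starts at −195. The Sesn1 stretch belongs to the downstream of its listed starts. In the windows of Phlda3, Btg2, Gdf15 and the upstream start of Sesn1 no exact decamer was found, which says only that these letters are not in these 300 bases. A match in sequence is a description and no binding was measured.

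Trp53 (ENSMUSG00000059552.13, GRCm38 chromosome 11, 69580359 to 69591873) had levels of 92.9 CPM in the M0 control, 73.4 CPM in M0 with regorafenib, 41.4 CPM in the M1 control, 49.6 CPM in M1 with regorafenib, 68.4 CPM in the M2 control and 78.6 CPM in M2 with regorafenib. Both M1 libraries were the lowest and the M0 control was the highest, over a range of 2.24-fold. This was, with that of Ccng1 (2.19-fold), the narrowest range of the 10 genes. With regorafenib the log2 ratio to control was −0.34 in M0, with a 95% interval of −0.42 to −0.26 from the exact binomial distribution of the counts. It was 0.26 (0.14 to 0.38) in M1 and 0.20 (0.12 to 0.28) in M2. These and all later intervals of a ratio of single libraries cover counting error only, and no such ratio has a replicate check.

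Mdm2 (ENSMUSG00000020184.15, chromosome 10, 117688875 to 117710758), the ubiquitin ligase of the feedback loop, had 339 CPM in the M0 control and 147 CPM in M0 with regorafenib. In M1 it had 700.0 CPM in the control and 619 CPM with regorafenib, and in M2 it had 429 CPM and 156 CPM. The M1 libraries were thus the highest and the M0 and M2 libraries with regorafenib the lowest, and every other library lay between. Its log2 ratio of regorafenib to control was −1.21 (−1.26 to −1.16) in M0, −0.18 (−0.21 to −0.15) in M1 and −1.46 (−1.51 to −1.41) in M2.

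Cdkn1a (ENSMUSG00000023067.14, chromosome 17, 29090976 to 29100727) encodes p21, the inhibitor of cyclin-dependent kinases through which p53 halts the cell cycle. Its level was 499.6 CPM in the M0 control and 129 CPM in M0 with regorafenib, 1416 CPM in the M1 control and 1299.9 CPM in M1 with regorafenib, and 684 CPM in the M2 control and 224 CPM in M2 with regorafenib. The 6 libraries came in the same order as for Mdm2, and the highest and lowest differed 10.9-fold. Regorafenib libraries held 3.86-fold less Cdkn1a than the control in M0 (log2 ratio −1.95, −1.998 to −1.90) and 3.05-fold less in M2 (−1.61, −1.65 to −1.57), against 1.09-fold less in M1 (−0.12, −0.15 to −0.10). Of its 100-base words 5.33% occur in other genes too, and its exons overlap those of the antisense gene AC167363.2, which held between 0 and 3 counts per library.

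Ccng1 (ENSMUSG00000020326.7, chromosome 11, 40748552 to 40755311) encodes cyclin G1, which recruits a phosphatase to Mdm2. It had 187 CPM in the M0 control and 126 CPM with regorafenib, 189.6 CPM and 226 CPM in M1, and 276 CPM and 165 CPM in M2. The M1 control and the M0 control did not differ beyond counting error, and the M2 control was the highest. Its regorafenib-to-control log2 ratio was −0.56 (−0.62 to −0.51) in M0, 0.25 (0.20 to 0.31) in M1 and −0.74 (−0.79 to −0.69) in M2. Btg2 (ENSMUSG00000020423.6, chromosome 1, 134075170 to 134079120), an antiproliferative gene that promotes removal of mRNA poly(A) tails, had 19.3 CPM in the M0 control and 52.9 CPM with regorafenib, 36.9 CPM and 37.4 CPM in M1, and 14.2 CPM and 30.1 CPM in M2. Its order was unlike that of Cdkn1a: M0 with regorafenib was the highest library and the M2 control the lowest. The log2 ratio of Btg2 was 1.45 (1.32 to 1.59) in M0, 0.02 (−0.11 to 0.15) in M1 and 1.08 (0.92 to 1.24) in M2.

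Phlda3 (ENSMUSG00000041801.5, chromosome 1, 135766119 to 135769136) encodes a repressor of Akt that competes for membrane lipids. Its level was 18.4 CPM in the M0 control and 7.07 CPM with regorafenib, 6.77 CPM and 12.9 CPM in M1, and 34.5 CPM and 12.1 CPM in M2. The control was the higher library in M0 and M2 and the lower in M1, and the levels of M1 and M2 with regorafenib did not differ beyond counting error. The log2 ratio was −1.38 (−1.61 to −1.16) in M0, 0.93 (0.66 to 1.21) in M1 and −1.51 (−1.68 to −1.33) in M2. Zmat3 (ENSMUSG00000027663.12, chromosome 3, 32334792 to 32366014), which encodes a zinc finger protein that binds RNA and regulates splicing, had 50.7 CPM in the M0 control and 41.5 CPM with regorafenib, 21.8 CPM and 27.8 CPM in M1, and 98.6 CPM and 51.0 CPM in M2. Like Phlda3 it was highest in the M2 control, and its log2 ratios were −0.29 (−0.40 to −0.18) in M0, 0.35 (0.19 to 0.52) in M1 and −0.95 (−1.04 to −0.86) in M2.

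Trp53inp1 (ENSMUSG00000028211.11, chromosome 4, 11156431 to 11174379) encodes a stress protein that acts in the nucleus with p53 and in autophagy. It had 30.5 CPM in the M0 control and 76.8 CPM with regorafenib, 9.87 CPM and 10.5 CPM in M1, and 43.2 CPM and 68.4 CPM in M2. Sesn1 (ENSMUSG00000038332.13, chromosome 10, 41809935 to 41908424) encodes a sestrin, an inhibitor of mTORC1 signalling. It had 58.3 CPM in the M0 control and 137 CPM with regorafenib, 6.35 CPM and 8.42 CPM in M1, and 55.3 CPM and 95.02 CPM in M2. For both genes the M1 libraries were the lowest and M0 with regorafenib was the highest, and Sesn1 had, with Gdf15 (20.4-fold, its lowest library at 7 counts), the widest range of the 10 genes (21.5-fold), in an order that counting error does not settle. The log2 ratio of regorafenib to control for Trp53inp1 was 1.33 (1.23 to 1.44) in M0, 0.09 (−0.16 to 0.35) in M1 and 0.66 (0.57 to 0.76) in M2. For Sesn1 it was 1.23 (1.15 to 1.31), 0.41 (0.10 to 0.71) and 0.78 (0.70 to 0.87) in the same order.

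Gdf15 (ENSMUSG00000038508.7, chromosome 8, 70629393 to 70632456) encodes a secreted stress cytokine of the TGF-β family and was the least abundant of the genes. In M0 it held 170 counts in the control and 43 with regorafenib, in M1 only 7 and 12, and in M2 152 and 34. Both M1 libraries were the lowest and did not differ beyond counting error. The log2 ratio was −2.09 (−2.60 to −1.59) in M0 and −1.78 (−2.36 to −1.23) in M2. In M1 it was 0.88 with an interval of −0.58 to 2.46, so that a difference was not detectable at this depth.

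**Figure D1:**
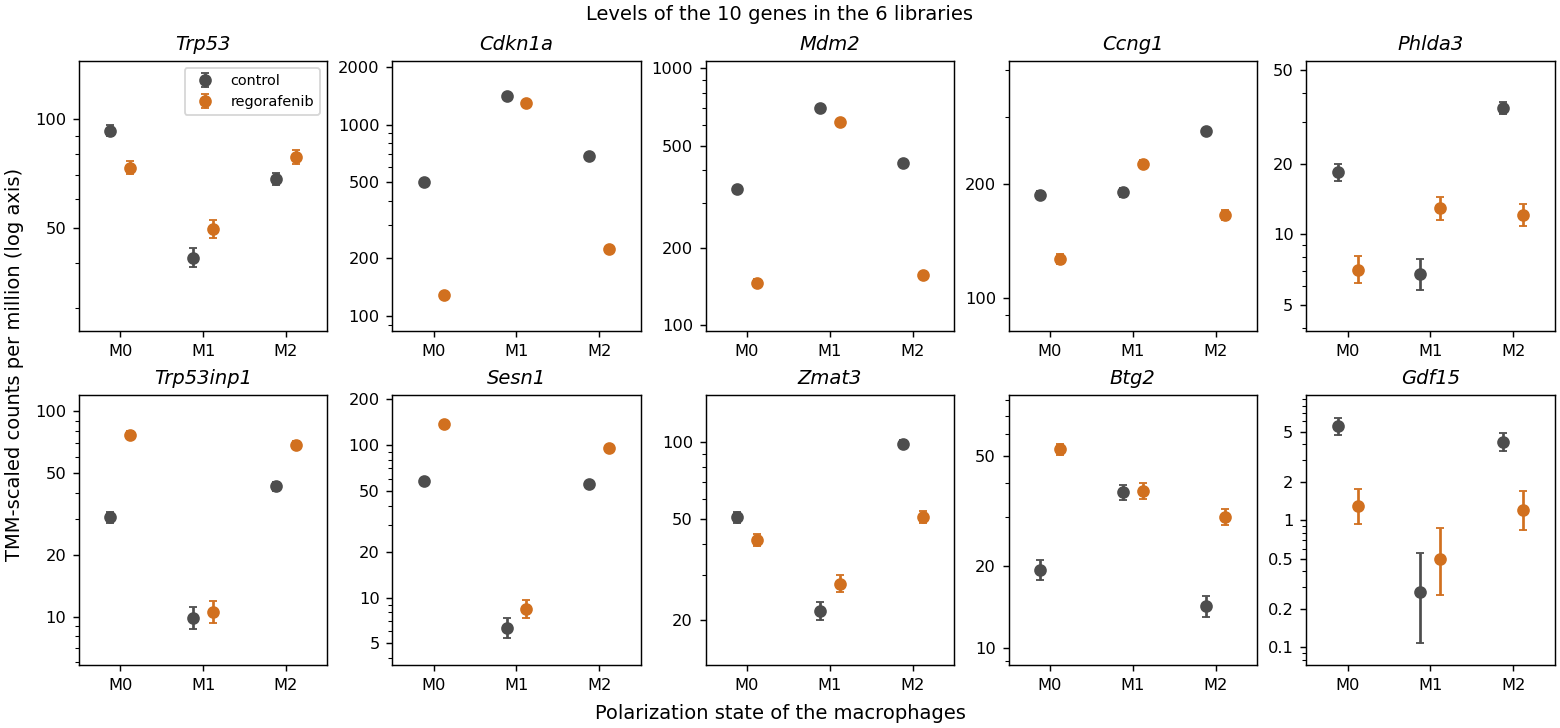
Level of each of the 10 genes (TMM-scaled CPM, log axis, separate scale for each gene) by polarization state, control in grey and regorafenib in orange, 1 library per point, with bars for the 95% Poisson interval of the count. Cdkn1a and Mdm2 are highest in both M1 libraries, where Sesn1 (6.35 and 8.42 CPM) and Trp53inp1 are lowest.

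Set side by side, the effect of regorafenib in M0 split the 10 genes into a group that was lower and a group that was higher. In M0, 4 genes were lower by at least 2-fold (Cdkn1a, Mdm2, Phlda3 and Gdf15), where 10.7% of all genes were, and 3 were higher by at least 2-fold (Trp53inp1, Sesn1 and Btg2), where 9.22% of all genes were. The median log2 ratio of the 10 genes was −0.45, against −0.02 for all genes tested. In M2 the same 4 genes were lower by at least 2-fold, against 4.97% of all genes, and Btg2 was higher, against 6.59% of all genes, and the medians were −0.85 and −0.01. Zmat3 in M2 (−0.95) and Phlda3 in M1 (0.93) lay just inside the 2-fold limit. In M1 none of the 10 passed 2-fold in either direction, where 5.68% of all genes did, and the medians were 0.26 and −0.01. The pairs of libraries of the 3 states are separate, and each comparison of a state describes its 2 libraries only.

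**Figure D2:**
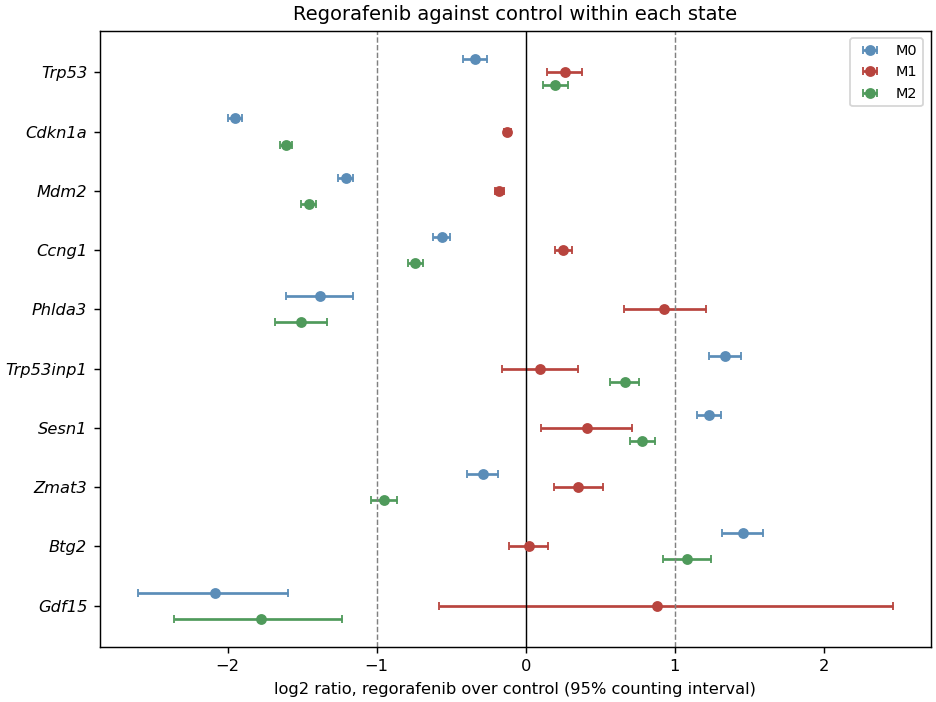
Log2 ratio of regorafenib to control for the 10 genes within M0, M1 and M2 (1 library a side), with bars for the 95% counting interval and dashed lines at 2-fold. Cdkn1a lies at −1.95 in M0 and −1.61 in M2 but at −0.12 in M1, and Btg2 lies at 1.45, 1.08 and 0.02.

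The size of the ratio differed between M1 and M0 by more than counting error for each of the 10 genes. How many of all genes did so was not counted, so this has no background. In M0 alone the interval of the ratio lay above 0 for 4873 and below 0 for 5022 of 14917 genes. Taken as M1 minus M0, the difference of log2 ratios was 1.83 (1.77 to 1.88) for Cdkn1a, 1.03 (0.97 to 1.09) for Mdm2 and −1.43 (−1.62 to −1.25) for Btg2. Taken as M2 minus M0, it was 0.34 (0.28 to 0.40) for Cdkn1a, −0.25 (−0.32 to −0.18) for Mdm2 and −0.37 (−0.58 to −0.17) for Btg2, smaller than M1 minus M0 in these 3 genes. For Zmat3 it was −0.66 (−0.80 to −0.52), against 0.64 (0.45 to 0.84) for M1 minus M0, and for Trp53 it was 0.54 (0.42 to 0.65) against 0.60 (0.46 to 0.74). For Phlda3 (−0.13, −0.41 to 0.15) and Gdf15 (0.31, −0.41 to 1.03) the interval of the difference between M2 and M0 held 0. With 1 library per condition none of these differences between states could be tested against the spread between replicates.

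All 6 libraries entered edgeR's quasi-likelihood test for a response shared by the states, with state as a block, so that the spread is the difference between states in the response. At an adjusted p under 0.05, 0 of 14110 genes passed (0.00%), 1637 had an unadjusted p under 0.05, and DESeq2 called 297. None of the 10 genes passed edgeR's threshold, 5 had an unadjusted p under 0.05, and DESeq2 called Cdkn1a (adjusted p = 0.0367) and Sesn1 (adjusted p = 0.0281). In edgeR's fit the log2 fold change of Cdkn1a was −1.22 (SE 0.374, adjusted p = 0.385) and that of Mdm2 was −0.94 (SE 0.271, adjusted p = 0.369). Sesn1 had 0.84 (SE 0.188, adjusted p = 0.316 by edgeR), Btg2 had 0.87 (SE 0.295, adjusted p = 0.404) and Trp53inp1 had 0.73 (SE 0.251, adjusted p = 0.408). Trp53 itself had 0.05 (SE 0.166, adjusted p = 0.887). Without the block for state edgeR called 0 of 13365 genes, and the log2 fold change was −0.63 for Cdkn1a and −0.65 for Mdm2. It was 1.02 for Sesn1, 0.77 for Btg2, 0.91 for Trp53inp1 and 0.01 for Trp53.

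When the M1 pair was left out, the edgeR fit of M0 and M2 called 380 of 13538 genes (1.62% higher and 1.19% lower), and 5 of the 10 genes were among them. Cdkn1a fell (log2 fold change −1.76, SE 0.148, adjusted p = 0.0402), as did Mdm2 (−1.31, adjusted p = 0.0405), Phlda3 (−1.42, adjusted p = 0.0428) and Gdf15 (−1.91, adjusted p = 0.0498), and Btg2 rose (1.29, adjusted p = 0.0491). Sesn1 (1.03, adjusted p = 0.0534), Ccng1 (−0.63, adjusted p = 0.0625) and Trp53inp1 (1.02, adjusted p = 0.0666) lay just outside edgeR's threshold. For Trp53 the log2 fold change in M0 and M2 was −0.05 (adjusted p = 0.859). This fit has 1 residual degree of freedom, and 4412 of its 13538 genes had an unadjusted p under 0.05. Without the M0 pair or without the M2 pair 0 genes passed (725 and 797 at an unadjusted p under 0.05). In these 2 fits the log2 fold changes were −0.85 and −1.03 for Cdkn1a, and −0.80 and −0.69 for Mdm2. Phlda3 had −0.31 and −0.23, Gdf15 had −0.88 and −0.99, and Btg2 had 0.57 and 0.74. Sesn1 had 0.63 and 0.84, Ccng1 had −0.23 and −0.15, and Trp53inp1 had 0.41 and 0.74.

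Against M0, the M1 libraries held more Cdkn1a and Mdm2 and less Sesn1, Trp53inp1 and Gdf15, without and with regorafenib. In the controls, Cdkn1a (log2 ratio of M1 to M0 1.503) and Mdm2 (1.05) were higher by at least 2-fold, as 17.1% of all genes were. Sesn1 (−3.20), Trp53inp1 (−1.63), Phlda3 (−1.44), Zmat3 (−1.22), Trp53 (−1.17) and Gdf15 (−4.35, −5.69 to −3.28) were lower by at least 2-fold, as 19.1% of all genes were. The 2 of 10 that were higher are near the share of all genes and the 6 of 10 that were lower are above it. The ratio of Gdf15 rests on 7 counts in the M1 control, and with 1 CPM added to both values it was −2.36. The regorafenib libraries gave log2 ratios of 3.33 for Cdkn1a and 2.08 for Mdm2, the only members higher by 2-fold (16.5% of all genes). Those of Sesn1 (−4.02), Trp53inp1 (−2.87) and Gdf15 (−1.39) were lower by 2-fold (20.7% of all genes), and with 1 CPM added that of Gdf15 was −0.62, inside 2-fold. For Phlda3 the ratio of M1 to M0 was −1.44 in the controls and 0.87 with regorafenib, and for Btg2 it was 0.93 and −0.50. These ratios share their libraries with the ratios of regorafenib to control, so that 1 library enters several of them.

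Over both treatments, edgeR with treatment as a block called 18.5% of the 14110 genes higher and 18.2% lower in M1 than in M0, and 6 of the 10 genes passed. Cdkn1a rose (log2 fold change 2.53, SE 0.473, adjusted p = 0.01001) and so did Mdm2 (1.67, SE 0.335, adjusted p = 0.0129). Sesn1 (−3.56, SE 0.251, adjusted p = 0.000691), Trp53inp1 (−2.19, SE 0.319, adjusted p = 0.00444), Gdf15 (−2.76, SE 0.733, adjusted p = 0.0322) and Trp53 (−0.82, SE 0.205, adjusted p = 0.0268) fell. Ccng1 (0.52, adjusted p = 0.186 by edgeR), Phlda3 (−0.07, adjusted p = 0.945), Zmat3 (−0.80, adjusted p = 0.0954) and Btg2 (0.30, adjusted p = 0.552) did not pass. The call of Trp53 was lost without the M0 control (−0.52, adjusted p = 0.165 by edgeR) or the M1 control (−0.65, adjusted p = 0.0907), and that of Gdf15 without the M0 control (−2.12, adjusted p = 0.0765) or the M1 control (−1.41, adjusted p = 0.0607). Without the M1 regorafenib library the log2 fold change of Gdf15 was −4.21, that of Cdkn1a was 1.64 and that of Mdm2 was 1.04, and without the M1 control that of Cdkn1a was 3.30. These 4 values all passed. Without the block for treatment, Cdkn1a (2.17, adjusted p = 0.0798 by edgeR), Mdm2 (1.502, adjusted p = 0.0988) and Gdf15 (−3.08, adjusted p = 0.0590) did not pass, with log2 fold changes close to those with the block. Calls were gained in edgeR without the M1 control by Ccng1 (0.94, adjusted p = 0.0127) and Phlda3 (0.96, adjusted p = 0.0283). Without the M1 regorafenib library they were gained by Phlda3 with the opposite sign (−1.41, adjusted p = 0.0122), Zmat3 (−1.33, adjusted p = 0.0203) and Btg2 (0.90, adjusted p = 0.0321). Zmat3 also passed without a filter on low counts (−0.86, adjusted p = 0.0266 by edgeR). Scaling by total counts in place of TMM lowered each ratio of M1 to M0 by 0.44 (log2) in the controls and 0.41 with regorafenib, which turned Ccng1 in the controls from 0.02 to −0.42 and changed the sign of no other member. It also took Mdm2 in the controls from 1.05 to 0.61, inside 2-fold, which leaves Cdkn1a (1.06) as the only member higher by 2-fold there. With it, the share of higher genes among all those past 2-fold went from 47.2% to 30.1% in the controls and from 44.4% to 28.4% with regorafenib.

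In the controls, the ratios of M2 to M0 ran from −0.44 (Trp53 and Btg2) to 0.96 (Zmat3), and none of the 10 passed 2-fold, where 12.1% of all genes did. The M2 control held more Zmat3 (0.96, 0.87 to 1.05), Phlda3 (0.91, 0.76 to 1.05), Ccng1 (0.56, 0.52 to 0.61), Trp53inp1 (0.50, 0.39 to 0.62), Cdkn1a (0.45, 0.42 to 0.48) and Mdm2 (0.34, 0.31 to 0.38) than the M0 control. It held less Trp53, Btg2 and Gdf15, and for Sesn1 (−0.08, −0.17 to 0.02) the interval held 0. With regorafenib the ratios ran from −0.81 (Btg2) to 0.79 (Cdkn1a), and none passed 2-fold, where 9.71% of all genes did. Across treatments, edgeR called 28 of 14110 genes (0.198%) and none of the 10. Its unadjusted p was under 0.05 for 1309 of the 14110 genes and for 0 of the 10. DESeq2 called 416 genes and none of the 10. The comparisons of M1 and of M2 with M0 share the M0 libraries.

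**Figure D3:**
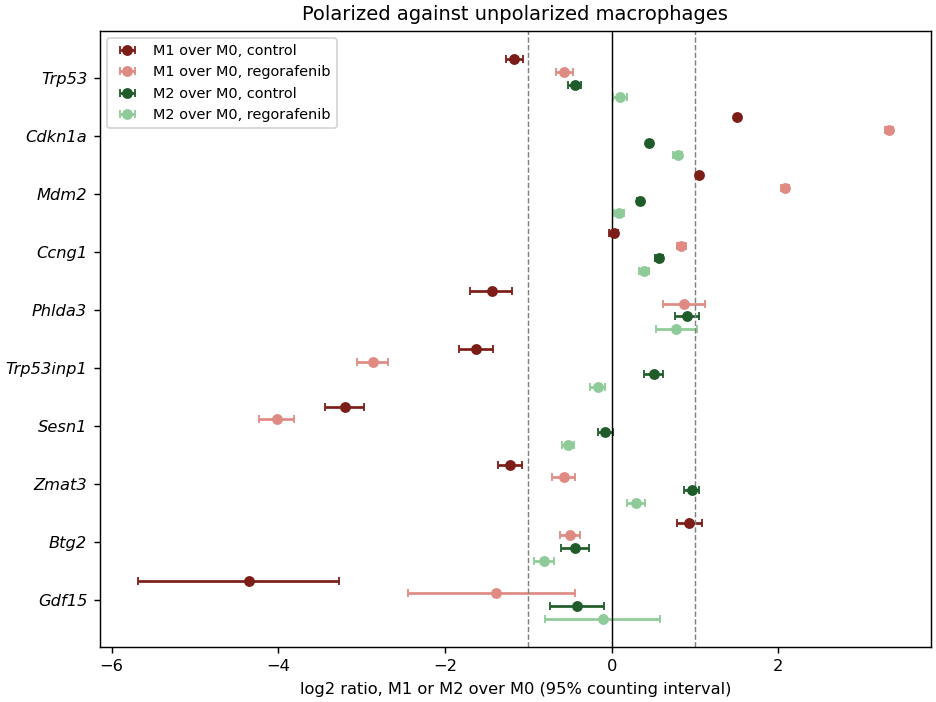
Log2 ratio of M1 or M2 to M0 for the 10 genes, in controls (dark) and with regorafenib (light), 1 library a side, with bars for the 95% counting interval and dashed lines at 2-fold. Sesn1 lies at −3.20 and −4.02 in M1, Cdkn1a at 1.503 and 3.33, and all ratios of M2 lie inside 2-fold.

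Per kilobase of exon, Cdkn1a had the highest level of the 10 genes in each of the 6 libraries, but in M0 with regorafenib Ccng1 (35.9 CPM per kb) did not differ from it (36.4 CPM per kb) beyond counting error. It took 42.7% of their summed level in the M0 control, 63.9% in the M1 control and 44.7% in the M2 control, and 18.8%, 61.7% and 28.9% with regorafenib. The summed level was 329 CPM per kb in the M0 control and 194 CPM per kb with regorafenib, 624 and 593 CPM per kb in M1, and 431 and 219 CPM per kb in M2. Sesn1 went from 4.45% to 17.7% of the sum in M0 and from 3.22% to 10.9% in M2, while in M1 it was 0.256% and 0.357%. Btg2 went from 2.14% to 9.96% in M0. The sum was lower with regorafenib in M0 and M2 although Sesn1, Btg2 and Trp53inp1 were higher there.

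**Figure D4:**
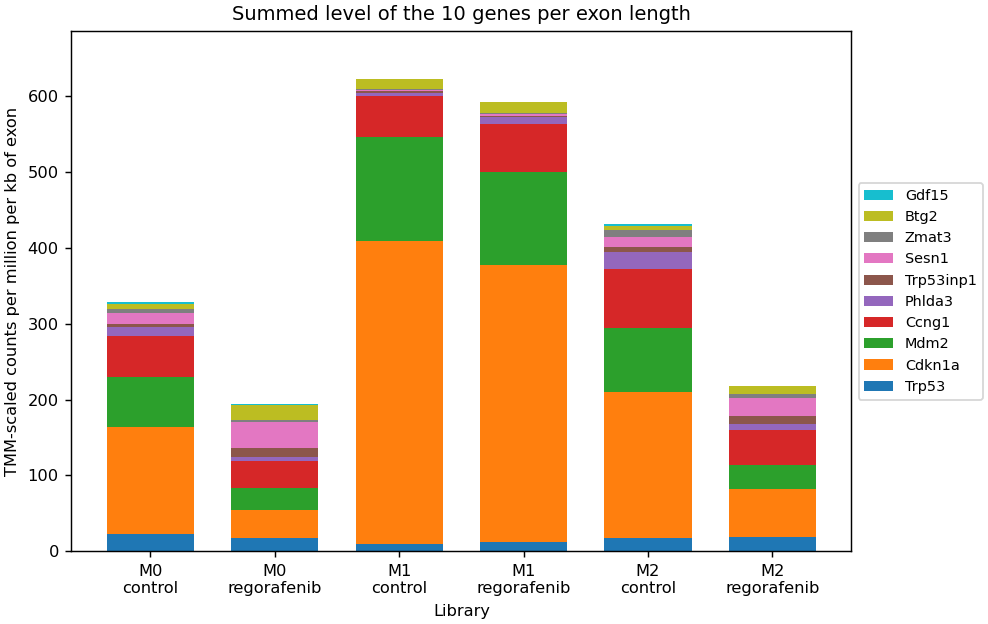
Stacked level of the 10 genes in each library, in TMM-scaled CPM per kb of exon. The stack is tallest in M1 (624 and 593) and shortest in M0 and M2 with regorafenib (194 and 219), and Cdkn1a makes up most of the difference.

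Other genes of the pathway, listed by role, also went both ways. Among 31 further p53 targets in M0, 6 were higher and 9 lower by at least 2-fold with regorafenib (9.22% and 10.7% of all genes). The median log2 ratio was −0.15 over the 30 of them that were above 3 counts in either library (all but Gls2). Of those that act in cell death, the receptor gene Tnfrsf10b (327 to 96 counts, −1.87), Pidd1 (775 to 227 counts, −1.87), the nuclease gene Aen (1293 to 579 counts, −1.26) and Pmaip1 (487 to 242 counts, −1.11), which encodes Noxa, were lower. Fas (204 to 479 counts, 1.13) and Bbc3 (308 to 673 counts, 1.03), which encodes Puma, were higher. Of those that act in arrest, Plk2 (3518 to 1042 counts, −1.86), Ckap2 (−1.45) and Psrc1 (−1.11) were lower and Gadd45a (104 to 412 counts, 1.88) was higher. In repair and metabolism, Xpc (1.18), which recognizes DNA damage, and Cd82 (1.07) were higher and Rps27l (−1.19) was lower.

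In M2, 1 of the 31 targets was higher by 2-fold and 7 were lower (6.59% and 4.97% of all genes), with a median of −0.34 over the same 30 genes. Plk2 (8420 to 2551 counts, −1.34), Tnfrsf10b (321 to 100 counts, −1.30), Ak1 (564 to 179 counts, −1.27), Eda2r (−1.17), Rps27l (3889 to 1375 counts, −1.12) and Aen (2183 to 799 counts, −1.07) were lower, as was Trp53cor1 (62 to 19 counts), named after its values were seen. Cd82 (628 to 1070 counts, 1.15) was higher. In M1, 2 of 31 were higher by 2-fold, Psrc1 (38 to 106 counts, 1.58) and Gadd45a (262 to 517 counts, 1.08), and 0 were lower (2.09% and 3.59% of all genes), with a median of 0.08. Across the 3 states edgeR called 0 of the 31 (5 at an unadjusted p under 0.05, against 1637 of all 14110 genes). DESeq2 called 2 higher and 1 lower, against 137 and 160 of 13289 genes with an adjusted p.

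Of 12 listed regulators of p53, 10 passed the minimum count. In M0, 2 of them were lower by 2-fold with regorafenib (10.7% of all genes), the checkpoint kinase gene Chek1 (608 to 118 counts, −2.47) and Cdkn2a (69 to 24 counts), which was named after its values were seen and encodes an inhibitor of Mdm2. None of the 10 passed 2-fold in M1 (5.68% of all genes) or in M2 (6.59% higher and 4.97% lower), which with 10 genes is near the background. In M1 against M0, edgeR called 4 of the 10 lower (18.2% of all genes) and 0 higher (18.5%). These were Chek1 (−3.88, SE 0.702, adjusted p = 0.00907 by edgeR), Chek2 (−2.98, SE 0.216, adjusted p = 0.000729), Atm (−1.32, SE 0.250, adjusted p = 0.0104), the kinase that phosphorylates p53 after DNA breaks, and Cdkn2a (−2.66, SE 0.624, adjusted p = 0.0215). Of the 31 further targets edgeR called 7 higher and 4 lower in M1 than in M0, counts near those shares of all genes, with Fas (3.005, SE 0.418, adjusted p = 0.00389) and Cd82 (1.98, SE 0.219, adjusted p = 0.00209) among the higher and Ephx1 (−3.99, SE 0.217, adjusted p = 0.000362), an epoxide hydrolase, among the lower.

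Cell cycle genes repressed by the DREAM complex, through which p21 acts, were set beside Cdkn1a. In M0 all 12 were lower by 2-fold with regorafenib (10.7% of all genes), with a median of −1.94, as in Mki67 (18430 to 5181 counts, −1.93), Top2a (14792 to 3788 counts, −2.07) and Mybl2 (1233 to 201 counts, −2.72), in the same pair of libraries in which Cdkn1a was lower. In M2, where the log2 ratio of Cdkn1a was −1.61, 0 of the 12 passed 2-fold (6.59% of all genes higher and 4.97% lower) and the median was −0.04. In M1 some of these genes were at or near the floor of 3 counts. The median was 0.44 over the 11 above 3 counts in either library. The intervals of 3 lay above 0 (2375 of all 14917 genes) and of 0 below it (3173 of all 14917 genes). Plk1 (7 to 2 counts, the 2 taken as 3), named after its values were seen, was the only gene past 2-fold, and its interval held 0. Without drug, all 12 were lower by 2-fold in M1 than in M0 (median −6.23, 19.1% of all genes), as in Top2a (14792 to 185 counts, −6.07). Also without drug, all 12 were lower by 2-fold in M2 than in M0 (median −1.34, 7.68% of all genes). With regorafenib the ratios of M2 to M0 went the other way, with a median of 0.53. The intervals of 11 of the 12 lay above 0 (3565 of all 14917 genes), and none passed 2-fold (9.71% of all genes). In M1 against M0 edgeR called 11 of the 12 lower (18.2% of all genes). Across the 3 states edgeR called 0 of the 12 with regorafenib (1 at an unadjusted p under 0.05, against 1637 of all 14110 genes), as did DESeq2. Of 7 ATF4 stress genes, which belong to the integrated stress response, another known input of Gdf15, 0 passed 2-fold with regorafenib in M0 (9.22% of all genes higher, 10.7% lower), M1 (5.68% in either direction) or M2 (6.59% higher, 4.97% lower). Their medians were −0.28 in M0, −0.21 in M1 and −0.47 in M2, and edgeR called 5 of the 7 higher in M1 than in M0 (18.5% of all genes). Across the 3 states neither edgeR (0 at an unadjusted p under 0.05) nor DESeq2 called any of the 7 with regorafenib, and the same held for the 10 regulators. In M2 against M0 edgeR called 0 genes of these lists. An unadjusted p under 0.05 was seen there for 1309 of all 14110 genes. Of the lists, it was seen for 5 of the 31 further targets and 2 of the 7 ATF4 genes. It was seen for 0 of the 12 cell cycle genes and 0 of the 10 regulators. DESeq2 called 3 of the 31 and 1 of the 7 there, against 416 of 13015 genes with an adjusted p.

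**Figure D5:**
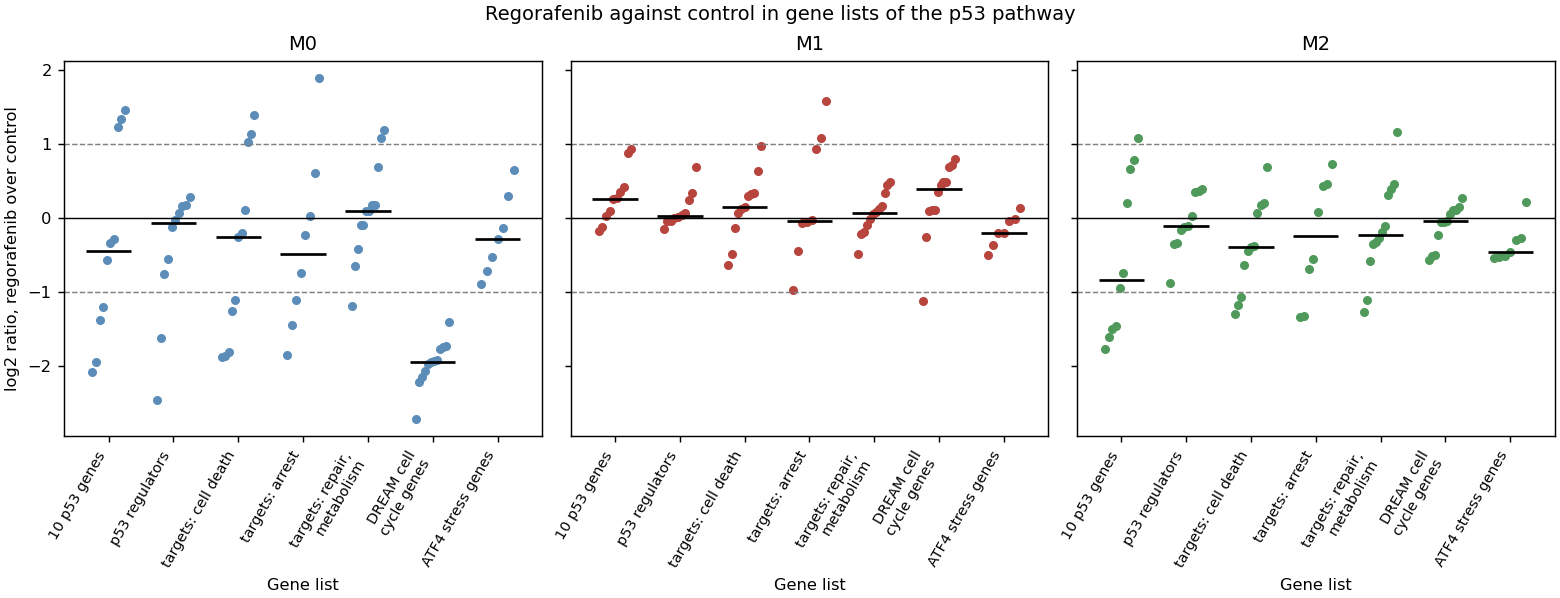
Log2 ratio of regorafenib to control in M0, M1 and M2 for each gene of the 10 p53 genes and of 6 further lists (1 point per gene, counts under 3 set to 3), with a bar at each list's median and dashed lines at 2-fold. The DREAM cell cycle genes lie near −1.94 in M0 and near −0.04 in M2, while the 10 p53 genes spread to both sides in both states.

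Markers of other cells moved with some of these comparisons. In M0 the summed level of the neutrophil list was 84.8 CPM in the control and 158 CPM with regorafenib, nearly all of it Mpo (80.7 and 155 CPM), and that of the fibroblast list was 3.19 and 10.2 CPM. In M2 the neutrophil list was at 88.8 and 132 CPM and the fibroblast list at 3.56 and 5.76 CPM. The dendritic cell list was at 0.630 CPM in the M2 control and 2.54 CPM with regorafenib, mostly Zbtb46 (15 and 59 counts), and at 0.553 and 0.303 CPM in M0. Of its 5 markers Flt3 and Clec9a were at 3 or fewer counts in every library. Ly6g and Elane were at 3 or fewer counts in these libraries. The part of these markers in the ratios of the 10 genes was not tested. In M1 the dendritic cell list was at 32.0 and 38.8 CPM, mostly Ccr7, the neutrophil list was at 157 and 110 CPM, and the M1 control held S100a8 at 69.8 CPM, against 4.004 CPM in the M0 control, and their part in the ratios of M1 was likewise not tested.

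To describe which genes varied most like Cdkn1a and Trp53, the centred log2 CPM over the 6 libraries was compared with that of 11312 other genes that reached 100 counts in any library, by root mean square (RMS) difference. Closest to Cdkn1a were Ifrd1 (0.185), Ell2 (0.202), Noct (0.231), Gm5844 (0.251) and Adamts1 (0.262). Mdm2 ranked 29 (0.411), and the next member, Ccng1, ranked 1652 (1.02). Closest to Trp53 were Pms1 (0.0384), Zfp39 (0.0671), Ubr7 (0.0733), Rad50 (0.0789) and BC052040 (0.0801), and none of the other 9 members was nearer to it than Zmat3 at rank 5435 (0.509). The 6 points share the same 6 libraries, and the RMS difference is a description with no test.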

How the data were processed

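RNA of BMDMs was sequenced in 6 libraries, 1 per condition. The authors deposited whole-number counts per gene. According to the study's methods and the submitters' processing notes, adaptors were removed with cutadapt 2.4, reads were mapped to GRCm38 with STAR 2.7.2a and counted with STAR on Gencode M19. The libraries were stranded, and the strand column taken is not given in the sources used here. Of the 54446 IDs, 53229 matched Gencode M21 with version and 1180 without, and 37 had no name.

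Counts were scaled with TMM (factors 0.820 to 1.12). Log2 ratios of single libraries were computed with a conditional exact binomial 95% interval, and a difference of at least 2-fold was counted, over the 14917 genes that reached 10 counts in any library, with counts under 3 set to 3. NOISeq's no-replicate mode, the study's choice, was not run, since it rests on simulated replicates. Common changes were tested with edgeR's quasi-likelihood test (additive model of state and treatment, filterByExpr, 2 residual degrees of freedom, Benjamini-Hochberg, threshold 0.05). Since no source used here says that the libraries are separate cultures, p-values measure only the spread between these samples. SE is the log2 fold change divided by the square root of F. The methods were tested on simulated data. Alternatives were DESeq2, other scalings, 1 CPM added, other minimum counts, no filter, no block and leaving out pairs or libraries. Promoter sequences are from RefSeq (GRCm38.p6).

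The members, lists and tests were chosen with earlier results of these data known. Named are all 10 members, genes of the other lists past 2-fold in a comparison that had 100 or more counts on its higher side, and the 5 genes most like Cdkn1a and like Trp53. Software was R 4.3.3, edgeR 4.0.16, DESeq2 1.42.0, Python 3.11.15, numpy 2.4.6, scipy 1.17.1 and pandas 2.3.3.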

Additional observations from a re-analysis of the deposited data

Results flagged for a closer look

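Some genes had ratios of regorafenib to control on opposite sides of 0 in a pair of states, by intervals that did not hold 0. Each state has 1 library a side, so the differences between states were not tested. Between M1 and M0, Phlda3 was higher with regorafenib in M1 and lower in M0 (difference of log2 ratios 2.31), as were Ccng1 (0.82), Zmat3 (0.64) and Trp53 (0.60). Between M1 and M2, the same was seen for Phlda3 (2.44), Zmat3 (1.30) and Ccng1 (0.99). Between M2 and M0, Trp53 was higher with regorafenib in M2 and lower in M0 (0.54).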

How the results depend on the processing

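The number of members past 2-fold stayed within 1.5 times of the reported value in each of the 35 combinations of a single-library comparison and an alternative. The alternatives with another minimum count (50 counts, or none) could not change this number, since every member reached at least 170 counts in a library. The ratios themselves moved past their counting interval in 36 combinations and stayed within it in 174. Of the 36, 28 were with total counts, 5 with median-of-ratios factors and 3 with 1 CPM added. These 3 are Gdf15, from −2.09 to −1.504 in M0, from −1.78 to −1.22 in M2 and from −4.35 to −2.36 for M1 to M0 in the controls. The block for state or treatment already pairs the libraries, and the labels give no replicate numbers for another pairing. For regorafenib across states (0 genes), DESeq2 called 297 genes and edgeR without a filter on low counts called 333, and leaving out a pair gave 0 to 380. For M2 against M0 (28 genes), DESeq2 called 416, edgeR without a filter 408, edgeR without the block 0, and leaving out a library gave 77 to 294. The number for M1 against M0 (5174) ran from 4123 to 5083 when a library was left out. Without a filter, Cdkn1a (adjusted p = 0.0328), Mdm2 (0.0444) and Sesn1 (0.0422) passed for regorafenib across states by edgeR, and Zmat3 (0.0266) for M1 against M0.

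Leaving out a pair or a library turned the sign of some members' log2 fold changes. For regorafenib these ran from −0.049 to 0.25 for Trp53 and from −0.60 to 0.036 for Zmat3. For M1 against M0 they ran from −1.41 (edgeR adjusted p = 0.0122, without the M1 regorafenib library) to 0.96 (0.0283, without the M1 control) for Phlda3, and from −0.35 to 0.90 for Btg2. For M2 against M0 they ran from −0.45 to 0.13 for Trp53, from −0.16 to 0.58 for Mdm2, from −0.28 to 0.65 for Trp53inp1, from −0.59 to 0.019 for Sesn1 and from −0.74 to 0.44 for Gdf15. Fits without a library have 1 residual degree of freedom, and a lone sample is assumed to vary like the others. The cause of these differences was not tested.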
